A study of Mus musculus with 30 samples.

Results

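The MHC class II presentation genes were followed across the livers of 10 groups of mice. Their members were fixed by name: H2-Aa, H2-Ab1, H2-Eb1, Cd74, H2-DMa, H2-DMb1, Ciita and Ctss, 8 genes, set beside 18193 genes of the array that had a probe set of their own. These members were chosen with earlier results of these data known. The shares of all genes given below are therefore a scale for the counts and not a test. A probe set is the group of short array oligonucleotides that reads a transcript. A gene was read by probe sets annotated to it alone, and the one with the highest mean over all 30 arrays gave its main value. This gave 7 of the 8 members a value, and all 7 passed the filter on dim genes. H2-DMb1 was read by no probe set of its own, because its probe sets were annotated jointly with H2-DMb2, so it has no value here.

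The mice were adult males on a C57BL/6J background, and total liver RNA was hybridised to Affymetrix arrays, 3 arrays a group. Mice that were wild type, humanised for the nuclear receptors CAR and PXR (hCAR/hPXR) or deleted for both (CARko/PXRko) received corn oil, 1,4-dichlorobenzene (DCB, 600 mg/kg) or cyproterone acetate (CPA, 160 mg/kg) by daily gavage, and PXRko mice (PXR deleted) received corn oil only. CAR and PXR are receptors through which hepatocytes sense foreign compounds. DCB is an aromatic solvent and deodorant chemical, and CPA is a synthetic progestogen and antiandrogen. Corn oil and DCB were given for 3 days per the labels. CPA was labelled 3 days in CARko/PXRko but 6 days in the other genotypes given it, while the protocol names 3 days for every CPA group, so genotype and labelled duration cannot be told apart where CPA effects are set against each other across those genotypes. By the labels the CPA effects in wild type and hCAR/hPXR also set 6 days of CPA against 3 days of corn oil, and there CPA and duration cannot be told apart either. The same corn oil arrays served as controls for DCB and for CPA within a genotype. The design text gives 5 mice a group, and no label says that each array is a separate mouse, so the p-values measure the spread between arrays.

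Class II molecules carry peptides from the endocytic pathway to CD4 T cells. They are pairs of an alpha and a beta chain, encoded here by H2-Aa and H2-Ab1 for the I-A molecule and by H2-Eb1 for the beta chain of I-E, whose alpha chain gene H2-Ea is not functional in C57BL/6 mice. Cd74, the invariant chain, fills the groove of new molecules until proteases such as cathepsin S, the product of Ctss, trim it away, and H2-DM, the product of H2-DMa with H2-DMb1, exchanges the remaining fragment for peptide. Ciita is the coactivator that turns on most of these genes, acting with factors bound to conserved X and Y boxes upstream of their start sites. In liver the pathway is known from Kupffer cells, dendritic cells, B cells and sinusoidal endothelium rather than from resting hepatocytes.

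Upstream sequences are shown for H2-Aa, H2-Eb1 and H2-DMb1, 3 members whose windows matched the X and Y box letters searched below. Ctss, which fell with the chains in hCAR/hPXR livers, is shown too, and its window held no match to those letters. Other forms of these boxes were not searched. H2-Ab1, H2-Aa and H2-Eb1 were direct neighbours among the protein-coding genes of the reference. Promoter entries were matched by symbol for 5 of the 8 members (H2-Aa, H2-Eb1, H2-DMa, H2-DMb1 and Ctss) and not for H2-Ab1, Cd74 and Ciita. Each sequence is the 150 bases before the RefSeq transcription start in GRCm38.p6, read 5′ to 3′ along the gene's own strand, and capitals mark the motifs searched. They lie at chr17:34287824-34287973 on the minus strand for H2-Aa, chr17:34305717-34305866 on the plus strand for H2-Eb1, chr17:34153041-34153190 on the plus strand for H2-DMb1 and chr3:95526636-95526785 on the plus strand for Ctss.
H2-Aa: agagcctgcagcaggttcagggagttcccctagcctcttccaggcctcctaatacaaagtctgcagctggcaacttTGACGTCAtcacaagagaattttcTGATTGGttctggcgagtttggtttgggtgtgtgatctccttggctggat
H2-Eb1: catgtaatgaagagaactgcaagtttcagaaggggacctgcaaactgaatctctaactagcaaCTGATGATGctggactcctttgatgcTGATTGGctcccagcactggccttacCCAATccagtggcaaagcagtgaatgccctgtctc
H2-DMb1: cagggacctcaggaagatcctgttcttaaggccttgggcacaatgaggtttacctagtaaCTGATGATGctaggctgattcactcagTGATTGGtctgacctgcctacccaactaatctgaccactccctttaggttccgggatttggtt
Ctss: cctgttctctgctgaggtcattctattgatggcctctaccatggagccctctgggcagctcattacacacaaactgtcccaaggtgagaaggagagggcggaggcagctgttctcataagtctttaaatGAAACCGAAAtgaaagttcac

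The motifs searched on both strands were the Y box core ATTGG, its longer form TGATTGG, which contains that core, the X2 box forms TGACGTCA and CTGATGATG, and the interferon element, GAAA repeated after any 2 bases. H2-Aa held TGACGTCA at bases -74 to -67 and TGATTGG at -50 to -44 from the start. In H2-Eb1 the X2 form CTGATGATG lay at -87 to -79 and TGATTGG at -61 to -55, with a further Y box core on the opposite strand at -35 to -31. H2-DMb1 held the last X2 form and TGATTGG in the same order, at -90 to -82 and -63 to -57. The Ctss window held neither X2 form and no Y box core, but held the interferon element at -21 to -12. Neither of the 2 windows listed for H2-DMa held any of these letters. Among 32851 promoters searched in the same way, 24.5% held ATTGG, 5.71% TGATTGG, 1.36% TGACGTCA, 0.301% CTGATGATG and 1.59% the interferon element. A match describes the letters only.

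As a check of the samples, the mouse CAR gene Nr1i3 lay between 9.32 and 10.60 on every wild type and PXRko array and between 6.05 and 6.86 on every hCAR/hPXR and CARko/PXRko array. One probe set of the mouse PXR gene Nr1i2 lay between 6.83 and 7.54 in wild type and between 4.11 and 4.73 in the other 3 genotypes on all arrays. Both genes were thus low where the labels say they were deleted or replaced, but they cannot tell hCAR/hPXR from CARko/PXRko arrays, which read alike, and no human receptor was read. All values are log2 probe set values, on which 1 unit is a doubling of signal, and the median of all probe sets lay between 5.36 and 5.44 on every array. Skeletal muscle transcripts were present on 4 arrays, with the median over the muscle gene list 7.48 log2 units above corn oil wild type in corn oil CARko/PXRko replicate 2, 7.08 in DCB CARko/PXRko replicate 3, 2.57 in DCB CARko/PXRko replicate 2 and 1.65 in corn oil PXRko replicate 3. Some results that rest on these arrays are given with and without them: the H2-Aa treatment effects in CARko/PXRko and counts for several gene lists. Others are given with all arrays only, among them the corn oil genotype comparisons, the differences of effects and most single genes of other lists. Leaving these arrays out keeps 1 DCB CARko/PXRko array, which the fit then takes to vary like the other groups. The share of all genes called without these arrays is not given. A change of count particular to a list or to the members therefore cannot be told apart from a general one. Hepatocyte markers were high on all arrays, with a list mean between 13.78 and 14.35.

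Livers of corn oil mice carried transcripts of the 3 chain genes, Cd74 and Ctss well above the array median in every genotype. Corn oil group means of H2-DMa were nearer to it, from 6.40 to 6.60, and those of Ciita, from 5.06 to 5.41, lay around or below it. H2-Aa, the I-A alpha chain, read 10.39, 10.58 and 9.95 on the 3 wild type arrays, 11.64, 11.32 and 10.67 in hCAR/hPXR, 10.28, 10.86 and 9.78 in CARko/PXRko, and 10.001, 12.36 and 10.29 in PXRko. Its partner H2-Ab1 read 8.93, 8.99 and 8.47 in wild type, 10.35, 10.04 and 9.14 in hCAR/hPXR, 8.85, 9.65 and 8.09 in CARko/PXRko, and 8.75, 11.04 and 8.74 in PXRko. Both chains were higher on all 3 hCAR/hPXR arrays than on any wild type array, and PXRko replicate 2 stood above its group. That array was also the highest of the corn oil arrays for the class I list (mean 11.07), the interferon-responsive list (9.06) and the Kupffer list (9.47).

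Cd74, the invariant chain, read 8.15, 8.11 and 7.48 in corn oil wild type, 8.998, 8.89 and 8.08 in hCAR/hPXR, 8.07, 8.13 and 7.68 in CARko/PXRko, and 8.01, 9.43 and 7.82 in PXRko. H2-Eb1 ran from 8.15 to 8.93 in wild type and from 8.93 to 10.16 in hCAR/hPXR, ranges that met. Ctss, the protease that trims the invariant chain, lay between 10.28 and 10.47 in wild type and between 10.66 and 10.96 in hCAR/hPXR. None of the 7 members differed between genotypes under corn oil in the limma fit at an adjusted p under 0.05, Benjamini-Hochberg over the 12795 genes tested, which is the call used throughout. In hCAR/hPXR against wild type H2-Aa was 0.90 ± 0.47 higher (SE, n = 3 arrays a group; 95% interval -0.08 to 1.88; limma adjusted p = 0.9998), and 2 members, H2-Eb1 and Cd74, had an unadjusted p under 0.05. Ctss was the 1 member with such a p in CARko/PXRko against PXRko, at a difference of -0.57 ± 0.25, and for either knockout set against wild type 0 members had one. The background was low too. Against wild type, limma called 0.0234% of genes for hCAR/hPXR, 0.0391% for CARko/PXRko and 0.0234% for PXRko, with 185, 424 and 220 genes at an unadjusted p under 0.05. Between the knockouts it called 0.0156% of genes, with 353 at an unadjusted p under 0.05.

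CPA lowered the I-A chains, H2-Eb1 and Cd74 in hCAR/hPXR and CARko/PXRko livers, and the I-A chains and Cd74 in wild type livers. H2-Aa fell to 5.77, 6.51 and 6.39 in hCAR/hPXR, to 5.81, 6.29 and 5.62 in CARko/PXRko, and to 7.50, 8.19 and 8.02 in wild type. No CPA array reached the lowest corn oil or DCB array of its genotype, and the hCAR/hPXR and CARko/PXRko values came close to the array median. The differences from corn oil were -4.99 ± 0.47 in hCAR/hPXR (a 31.8-fold lower signal; limma adjusted p = 5.6e-07), -4.40 ± 0.47 in CARko/PXRko (21.1-fold; adjusted p = 3.95e-06) and -2.41 ± 0.47 in wild type (5.3-fold; adjusted p = 0.0101), each with 3 arrays against 3. By the labels, the first and the last of these set 6 days of gavage against 3, and that of CARko/PXRko 3 against 3.

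H2-Ab1 under CPA read 6.38, 6.58 and 6.16 in hCAR/hPXR, 6.42, 6.17 and 6.35 in CARko/PXRko, and 6.27, 6.48 and 6.71 in wild type. The ranges of the 3 genotypes overlapped under CPA, although hCAR/hPXR lay above wild type under corn oil. The falls were -3.47 ± 0.51 (adjusted p = 0.000166), -2.55 ± 0.51 (adjusted p = 0.0044) and -2.31 ± 0.51 (adjusted p = 0.0225) in the limma fit. H2-Eb1, the I-E beta chain, read 5.71, 6.14 and 6.58, then 6.34, 6.05 and 5.42, then 6.47, 6.89 and 6.83 in the same order of genotypes. Every one of these CPA arrays was below the corn oil arrays of its genotype, but only the first 2 differences were called: -3.50 ± 0.48 in hCAR/hPXR (adjusted p = 7.12e-05), -2.83 ± 0.48 in CARko/PXRko (adjusted p = 0.00102) and -1.88 ± 0.48 in wild type (adjusted p = 0.0566 by limma).

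Cd74 read 5.79, 6.02 and 5.93 under CPA in hCAR/hPXR, 6.19, 6.43 and 6.06 in CARko/PXRko, and 6.76, 6.53 and 6.56 in wild type. The 3 groups did not overlap with each other or with corn oil. The differences were -2.74 ± 0.32 (adjusted p = 1.2e-05), -1.74 ± 0.32 (adjusted p = 0.00182) and -1.30 ± 0.32 (adjusted p = 0.0425) in the limma fit. Ctss read 8.91, 9.49 and 9.51 in hCAR/hPXR, 9.82, 9.68 and 9.17 in CARko/PXRko, and 9.51, 9.61 and 9.63 in wild type. Its fall was called in hCAR/hPXR alone among the CPA effects (-1.47 ± 0.25; limma adjusted p = 0.0007), against -0.80 ± 0.25 in wild type (adjusted p = 0.134), where the groups did not overlap, and -0.50 ± 0.25 in CARko/PXRko (adjusted p = 0.248).

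In all, limma called 5 of the 7 members lower under CPA in hCAR/hPXR, where 2.90% of all genes tested were lower, 4 in CARko/PXRko against 3.31%, and 3 in wild type against 0.633%. No member rose. The members' median difference was -2.74, -1.74 and -1.30 log2 units in those genotypes, while the median over all genes was -0.02, -0.01 and -0.01. The wild type count rested on single arrays: 0 members were called without corn oil replicate 1, without corn oil replicate 2 or without CPA replicate 1, and 1 without CPA replicate 2 or without CPA replicate 3. The CPA count in hCAR/hPXR was 5 in each fit that left out 1 of its arrays. These counts are given without the share of all genes called in the same fits, so a general loss of calls was not separated from them.

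**Figure D1:**
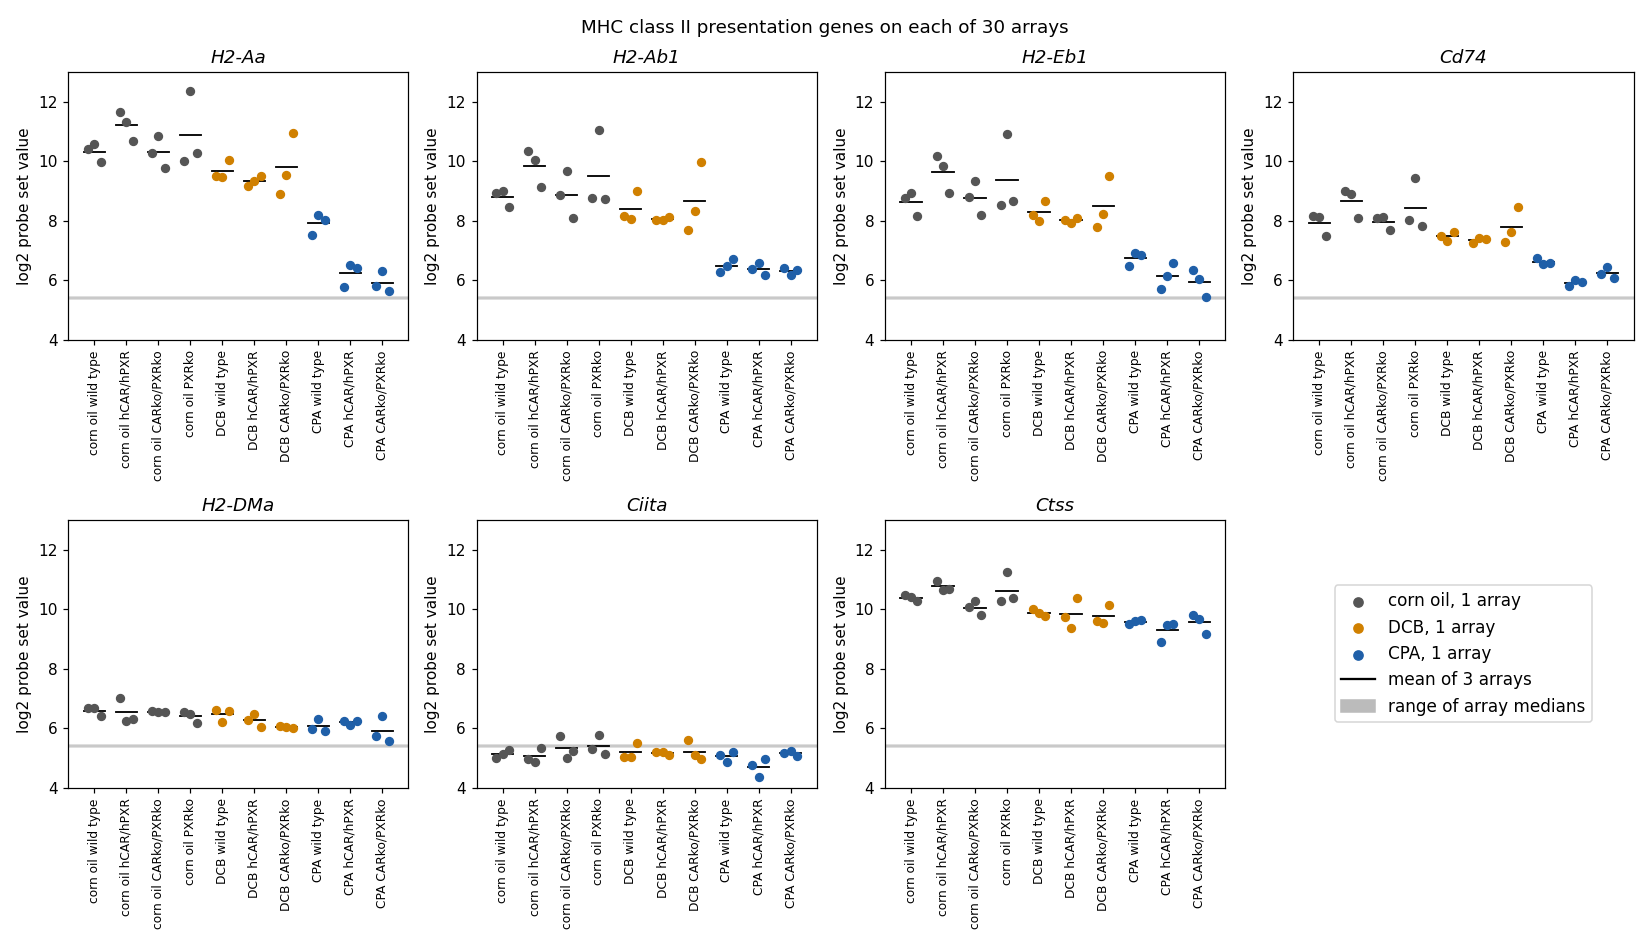
Log2 probe set value (vertical axis) of the 7 measured members on each of 30 arrays in 10 groups (horizontal axis); each point is 1 array, the black line the mean of 3 and the grey band the range of array medians, 5.36 to 5.44. Cd74 and the 3 chain genes were lowest on the CPA arrays, and Ciita lay around or below the band in every group.

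DCB lowered the I-A chains, H2-Eb1, Cd74 and Ctss in hCAR/hPXR livers. On the DCB arrays of that genotype H2-Aa read 9.15, 9.32 and 9.51, H2-Ab1 8.01, 8.01 and 8.11, H2-Eb1 8.01, 7.91 and 8.10, Cd74 7.23, 7.43 and 7.39, and Ctss 9.75, 9.37 and 10.38. All of these lay below the lowest corn oil array of the genotype, and the first 4 genes varied little between the DCB arrays. The differences were -1.89 ± 0.47 for H2-Aa (limma adjusted p = 0.0169), -1.80 ± 0.51 for H2-Ab1 (0.0329), -1.64 ± 0.48 for H2-Eb1 (0.0385), -1.31 ± 0.32 for Cd74 (0.0139) and -0.94 ± 0.25 for Ctss (0.0221). That was 5 of 7 members, where 4.35% of all genes were called lower. Without corn oil hCAR/hPXR replicate 1 or replicate 2, the arrays on which the chains and Cd74 were highest, limma called 0 of the 7. Without DCB hCAR/hPXR replicate 1 or replicate 2 it called 2, without DCB replicate 3 it called 3, and with only the 2 groups compared in the fit it called 1. The share of all genes called in these fits is not given here. A loss of calls particular to the members therefore cannot be told apart from a general one.

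In wild type livers DCB left H2-Aa at 9.49, 9.45 and 10.02, overlapping with corn oil (-0.66 ± 0.47; 95% interval -1.64 to 0.32). Ctss was the member whose DCB arrays, at 10.01, 9.87 and 9.78, all lay below corn oil wild type (-0.50 ± 0.25; limma adjusted p = 0.516). Limma called 0 of the 7 members, and 0 had an unadjusted p under 0.05, against 0.125% of genes called lower and 1295 genes at an unadjusted p under 0.05. In CARko/PXRko livers DCB arrays read 8.91, 9.53 and 10.93 for H2-Aa and 7.70, 8.33 and 9.96 for H2-Ab1. Replicate 3, the array of this group with the most muscle transcripts, was the highest of the 3 for both genes, and replicate 2, which held fewer, lay in the middle. Limma called 0 members there, with 1, H2-DMa, at an unadjusted p under 0.05, and 0% of all genes were called lower, with 1036 genes at an unadjusted p under 0.05. The H2-Aa difference was -0.52 ± 0.47 with all arrays and -1.12 ± 0.60 without the 4 arrays with muscle transcripts (limma adjusted p = 0.932), and the part of those transcripts in the result was not tested. For CPA in CARko/PXRko the H2-Aa difference was -4.12 ± 0.45 without those arrays, and 4 members were called as before.

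**Figure D2:**
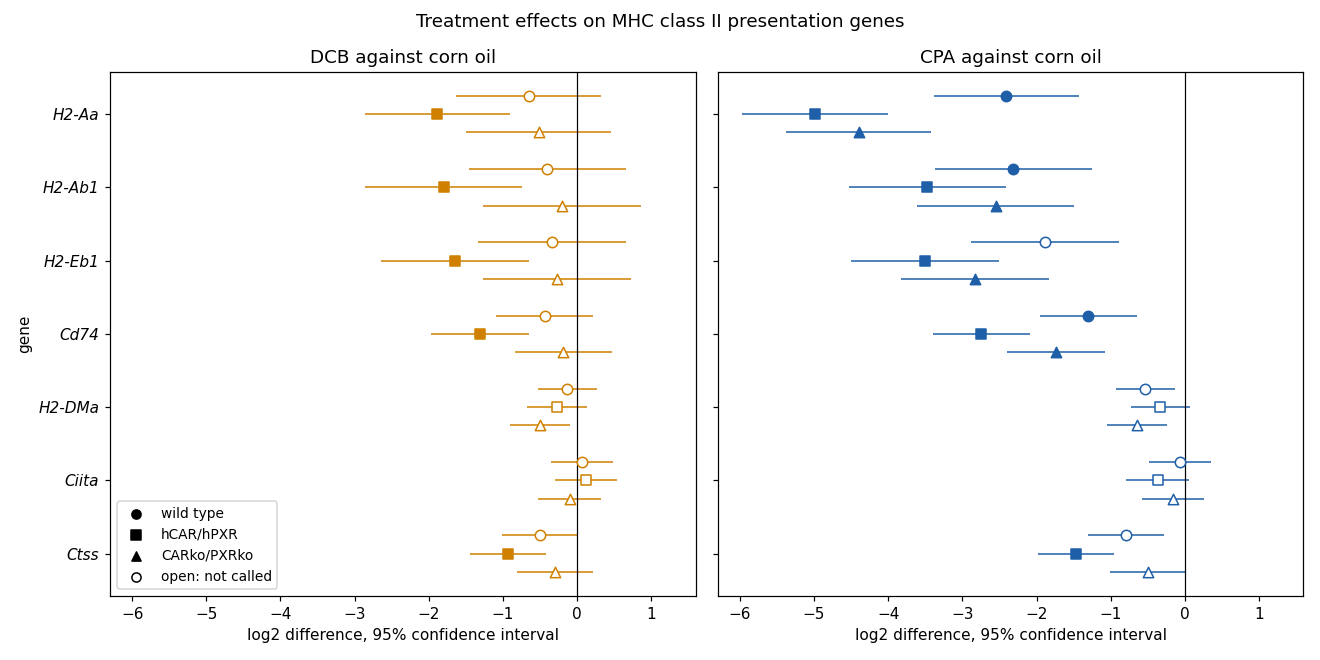
Log2 difference from corn oil (horizontal axis) of each measured member under DCB (left, orange) and CPA (right, blue), with the 95% confidence interval of the limma fit; circles are wild type, squares hCAR/hPXR, triangles CARko/PXRko, and filled symbols are called at an adjusted p under 0.05. The largest falls were those of H2-Aa under CPA, -4.99 in hCAR/hPXR and -4.40 in CARko/PXRko.

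Whether a treatment acted differently by genotype was tested as a difference of effects. The CPA effect on H2-Aa was larger in hCAR/hPXR than in wild type by -2.58 ± 0.67 (95% interval -3.97 to -1.20; limma adjusted p = 0.469) and in CARko/PXRko by -1.99 ± 0.67 (-3.38 to -0.60; adjusted p = 0.466). For Cd74 the corresponding values were -1.44 ± 0.45 (-2.37 to -0.51) and -0.44 ± 0.45 (-1.37 to 0.49). Limma called 0 of 7 members in either, with 3 and 1 members at an unadjusted p under 0.05, and it called 0.0625% and 0.0703% of all genes, with 628 and 967 at an unadjusted p under 0.05. For DCB it called 0 members and 0% of genes in both differences, with 0 members and 398 and 324 genes at an unadjusted p under 0.05. The DCB effect on H2-Aa differed between hCAR/hPXR and wild type by -1.23 ± 0.67 (95% interval -2.62 to 0.16) and between CARko/PXRko and wild type by 0.14 ± 0.67 (-1.25 to 1.52). With array weights, or with only the groups compared in the fit, the larger CPA fall of H2-Aa in hCAR/hPXR was called (limma adjusted p = 0.0447 and 0.0255). No other alternative called it. With probe sets averaged per gene the difference was -1.65 ± 0.69 (limma adjusted p = 0.887), and without a filter on dim genes the adjusted p was 0.572.

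Ordered by mean, Cd74 and the 3 chain genes each ran from corn oil hCAR/hPXR at the top through the other corn oil groups and the 3 DCB groups to the 3 CPA groups. Neighbouring groups in that order overlapped down to DCB hCAR/hPXR. The step from DCB hCAR/hPXR to CPA wild type had no overlap in any of the 4 genes. Below it, H2-Aa was higher in CPA wild type than on any array of the other CPA groups, and the H2-Ab1 ranges of the CPA groups overlapped. Ctss spanned 2.33 log2 units over the 30 arrays against 6.73 for H2-Aa, and all its neighbouring groups overlapped.

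H2-DMa, the peptide exchange subunit, and Ciita, the coactivator, had no called change in any comparison. The main probe set of H2-DMa lay between 6.26 and 7.03 over the corn oil arrays of the treated genotypes, and between 5.59 and 6.41 under CPA. CPA arrays were all below their corn oil arrays in each of the 3 genotypes. In hCAR/hPXR they were barely apart, with the highest CPA array at 6.2578 and the lowest corn oil array at 6.2587. The differences were -0.53 ± 0.19 in wild type, -0.33 ± 0.19 in hCAR/hPXR and -0.64 ± 0.19 in CARko/PXRko, the last with a limma adjusted p of 0.0545. How many of all genes separate so fully is not given, here or where other members did not overlap. Ciita exceeded the array median on 4 of 30 arrays and lay between 4.35 and 5.79 throughout. Its CPA differences were -0.07 ± 0.20 in wild type (95% interval -0.49 to 0.35), -0.37 ± 0.20 in hCAR/hPXR (-0.79 to 0.05) and -0.16 ± 0.20 in CARko/PXRko (-0.58 to 0.26). These intervals leave room for a fall of up to those lower bounds.

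The probe sets of one gene gave different sizes. H2-Aa had 4, H2-Ab1 and Ciita 3 each, H2-DMa 2, and H2-Eb1, Cd74 and Ctss 1 each. Under CPA in CARko/PXRko the main H2-Aa probe set differed from corn oil by -4.40 and the others by -2.47, -2.01 and -1.34. In hCAR/hPXR the main one differed by -4.99 and the others by -3.19, -2.82 and -2.56. Every H2-Aa and H2-Ab1 probe set had a negative difference in all 6 treatment effects. The genotype difference of the CPA effect on H2-Aa shrank to -1.62, -1.24 and -1.16 in hCAR/hPXR and to -0.90, -0.43 and 0.07 in CARko/PXRko on the other probe sets, so its sign in CARko/PXRko was not shared by all 4. For H2-DMa the second probe set moved more than the main one: -1.63 ± 0.29 under CPA and -1.12 ± 0.29 under DCB in hCAR/hPXR, both past the threshold when all single-gene probe sets were tested in limma (adjusted p = 0.00235 and 0.0335). The absence of a call for H2-DMa therefore held for its main probe set only.

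**Figure D3:**
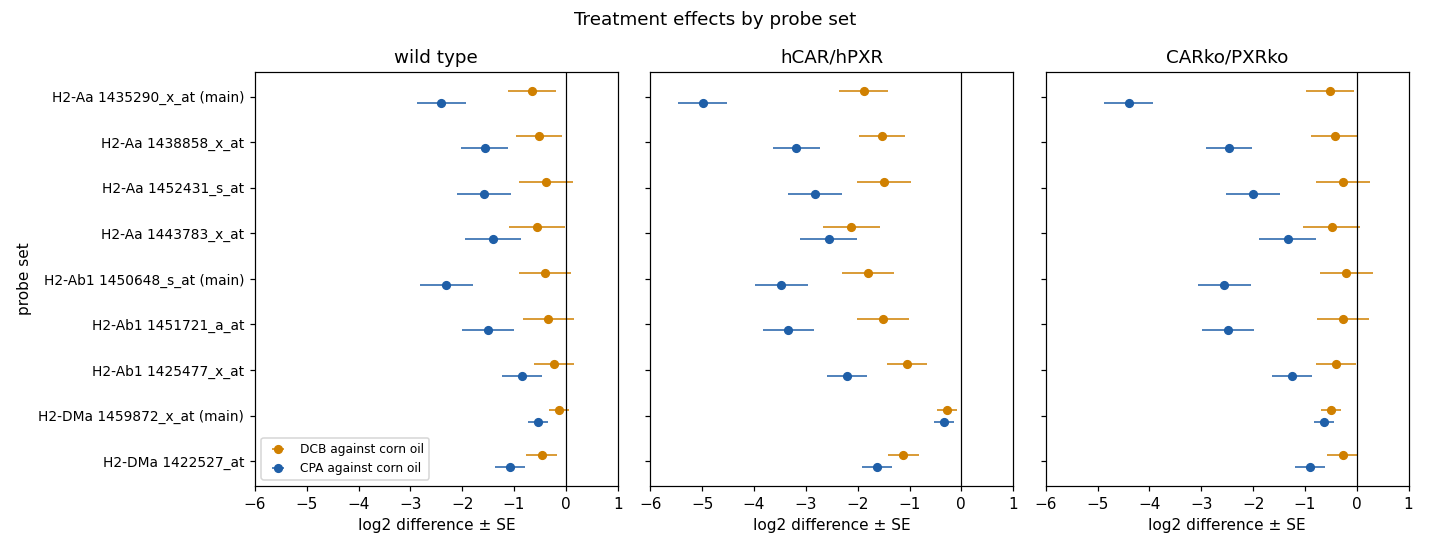
Log2 difference from corn oil with its standard error (horizontal axis) for every single-gene probe set of H2-Aa, H2-Ab1 and H2-DMa (vertical axis) in each treated genotype (panels); orange is DCB and blue CPA. The main H2-Aa probe set fell the most under CPA, and the second H2-DMa probe set fell more than its main one in hCAR/hPXR.

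Pooled over groups, the deviations of the chains and Cd74 from their group means were alike, but not within every group. Under CPA in CARko/PXRko, H2-Aa was highest on replicate 2 (6.29), where H2-Ab1 was lowest (6.17). Groups that varied most weigh most in the r values below. The standard deviation of H2-Aa was 1.29 in corn oil PXRko and 1.04 in DCB CARko/PXRko, against 0.18 to 0.54 in the other groups. After the mean of each group was removed, Pearson's r over 30 arrays lay between 0.90 and 0.95 among Cd74, H2-Aa, H2-Ab1 and H2-Eb1, between 0.63 and 0.78 for Ctss with each of them, between 0.17 and 0.34 for H2-DMa and between -0.06 and 0.05 for Ciita. These are descriptions, since arrays of a group share a treatment and a liver sample carries all its cell types at once. Outside the list, the genes most like the mean of the 5 called members on that measure were Cd274 (0.86), which encodes the checkpoint ligand PD-L1, the interferon-induced GTPase Gbp2 (0.84), Epsti1 (0.80) and BC023105 (0.80). Irf8, a transcription factor of myeloid and B cells, was the 10th (0.76). Ctss alone was most like Ctla2b (0.90), the myeloid adaptor Tyrobp (0.89) and Cd52 (0.89).

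Few other genes of the class II pathway were called. The list counts from here on stand beside these shares of all genes tested. Under CPA limma called 2.90% lower in hCAR/hPXR, 3.31% in CARko/PXRko and 0.633% in wild type. Under DCB it called 4.35% lower in hCAR/hPXR, 0.125% in wild type and 0% in CARko/PXRko. Of 14 tested genes that act with the members (Lgmn, Ifi30, cathepsins, costimulators and others), CPA lowered 1 in hCAR/hPXR, the protease Lgmn (-1.04 ± 0.26; limma adjusted p = 0.0204), and none in wild type or CARko/PXRko. DCB in hCAR/hPXR lowered Marchf8, of the ubiquitin ligase family that acts on class II molecules (-0.77 ± 0.16), and the cathepsin inhibitor Cst3 (-0.55 ± 0.16). Of 14 transcription and signalling genes, CPA in hCAR/hPXR lowered Irf1 (-1.03 ± 0.17), Nfyb, a subunit of the Y box factor NF-Y (-0.91 ± 0.17), and the interferon gamma receptor chain Ifngr1 (-0.68 ± 0.19), and in CARko/PXRko it lowered Nfyb (-1.003 ± 0.17). DCB in hCAR/hPXR lowered Jak2 (-0.76 ± 0.16), Ifngr1 (-0.74 ± 0.19) and Irf1 (-0.55 ± 0.17). H2-Ea, the gene not functional in this strain, stayed between group means of 7.48 and 7.81.

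Some class I presentation genes fell as well. Of 12 tested, 2 were lower under CPA in hCAR/hPXR (the immunoproteasome subunits Psmb10 at -1.01 ± 0.23 and Psmb8 at -1.01 ± 0.25), 2 in CARko/PXRko (Tapbp, the peptide loading chaperone tapasin, at -0.91 ± 0.23 and the proteasome activator Psme1 at -0.51 ± 0.14) and none in wild type. Without the 4 arrays with muscle transcripts none was lower in CARko/PXRko by limma; this count and the others of this kind for lists other than the members were added after the data were seen. Their medians were -0.51, -0.57 and -0.26. DCB in hCAR/hPXR lowered B2m, the class I light chain (-0.49 ± 0.10), and H2-K1, a heavy chain (-0.54 ± 0.14), and raised Psme1 (0.46 ± 0.14).

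Many interferon-responsive genes were lower in the same livers. Of 17 tested, 12 were lower under CPA in hCAR/hPXR, 10 in CARko/PXRko and 6 in wild type, with medians of -1.57, -1.22 and -1.04, and none was higher. Without the 4 arrays with muscle transcripts the CARko/PXRko count was 8. Usp18, which restrains interferon signalling, differed by -2.46 ± 0.29 in hCAR/hPXR, -1.61 ± 0.29 in CARko/PXRko and -1.71 ± 0.29 in wild type. DCB in hCAR/hPXR lowered 3, the antiviral gene Ifit2 (-0.98 ± 0.22) and the GTPases Gbp6 (-2.07 ± 0.55) and Gbp3 (-1.33 ± 0.40). None of the 4 arrays with muscle transcripts was of that genotype.

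Some markers of leukocytes, Kupffer cells, sinusoidal endothelium and stellate cells were lower under the treatments too. In liver RNA, fewer cells of a type and less RNA per cell cannot be told apart. Under CPA, 9 of 10 pan-leukocyte genes were lower in hCAR/hPXR, 2 in CARko/PXRko and 2 in wild type, with medians of -1.41, -0.46 and -1.09. Without the arrays with muscle transcripts 1 was lower in CARko/PXRko. Ptprc, which encodes the pan-leukocyte phosphatase CD45, differed by -2.46 ± 0.29, -1.64 ± 0.29 and -1.82 ± 0.29. The list mean lay between 6.17 and 7.14, 6.66 and 7.40, and 6.60 and 6.68 on those CPA arrays, against 7.85 to 8.36, 7.31 to 7.88 and 7.69 to 7.77 under corn oil.

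Of 15 tested Kupffer cell and macrophage markers, CPA lowered 10 in hCAR/hPXR (median -1.24), 2 in wild type (-0.78) and 1 in CARko/PXRko (-0.19). Adgre1, an adhesion receptor of macrophages, differed by -1.54 ± 0.20 in hCAR/hPXR, and Csf1r, the macrophage growth factor receptor, by -1.69 ± 0.27 there and -1.11 ± 0.27 in CARko/PXRko. In CARko/PXRko the list mean lay between 8.004 and 8.73 under CPA and between 8.41 and 8.67 under corn oil, ranges that overlapped. Under DCB in hCAR/hPXR 7 of 15 were lower (median -0.91), and the list mean lay between 8.02 and 8.34 against 8.87 to 9.11 under corn oil. In wild type and CARko/PXRko DCB lowered none of them by limma, at medians of -0.44 and -0.46.

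Of 11 tested sinusoidal endothelial markers, CPA lowered the Fc receptor Fcgr2b (-1.09 ± 0.25) and the VEGF receptor Kdr (-0.59 ± 0.15) in hCAR/hPXR and none in wild type. In CARko/PXRko it lowered the endothelial cadherin Cdh5 (-0.87 ± 0.21) and Kdr (-0.52 ± 0.15), 1 gene without the arrays with muscle transcripts, and raised the hyaluronan receptor Lyve1 (3.53 ± 0.63). DCB lowered the mannose receptor Mrc1 in hCAR/hPXR (-0.58 ± 0.18). The list medians were small, -0.24, -0.09 and -0.38 under CPA in hCAR/hPXR, CARko/PXRko and wild type, and -0.42 under DCB in hCAR/hPXR. Of 11 tested stellate cell and fibroblast markers, DCB lowered Lrat, which stores retinol as its ester (-1.52 ± 0.34), and Reln, which encodes reelin (-1.06 ± 0.27), in hCAR/hPXR, at a list median of -0.69. CPA lowered Reln (-0.99 ± 0.27) and the collagen gene Col3a1 (-2.48 ± 0.71) in CARko/PXRko, where the count was 0 by limma without the arrays with muscle transcripts, and none in hCAR/hPXR or wild type, at medians of -0.90, -0.73 and -0.32. Within groups, the deviations of these lists' means correlated with those of the mean of the 5 called members at r = 0.61 for stellate cells, 0.59 for Kupffer cells, 0.72 for the pan-leukocyte genes and -0.12 for sinusoidal endothelium over 30 arrays, as a description.

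B cell and dendritic cell markers were dim. Of 9 tested B cell and plasma cell markers, CPA lowered the B cell receptor subunit Cd79b (-1.28 ± 0.19), its inhibitory coreceptor Cd22 (-0.73 ± 0.15) and Ms4a1, a B cell surface antigen (-0.89 ± 0.24), in hCAR/hPXR, and Cd22 (-0.60 ± 0.15) and Cd79b (-0.63 ± 0.19) in CARko/PXRko. The mean over the 11 measured markers lay between 5.48 and 6.36 on all arrays. Of 12 measured dendritic cell markers 7 were tested and none was called in any treatment effect, and the list mean lay between 5.42 and 5.75 on all arrays. Xcr1 and Cd209a, which did not pass the filter, had group means from 3.91 to 4.08 and from 4.88 to 5.21, below the array medians. Passing the filter means only that the 7 tested dendritic cell markers each exceeded the array median on at least 3 arrays. None of 5 tested T and NK cell markers and none of 4 neutrophil markers was called. The part of any cell type in the fall of the class II genes was not tested.

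**Figure D4:**
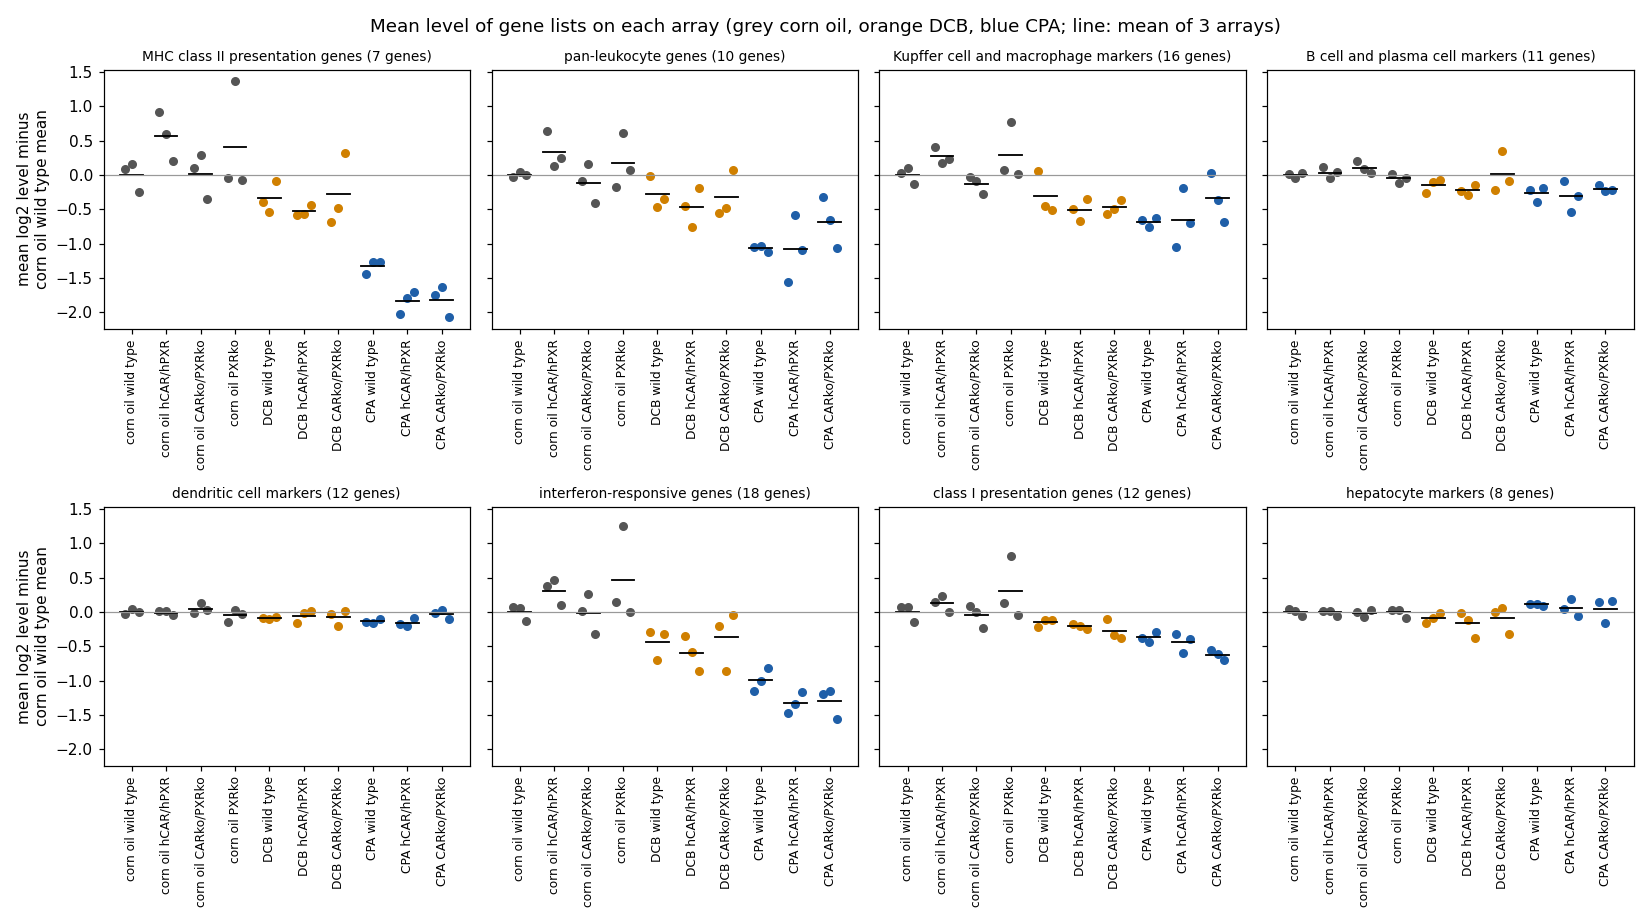
Mean log2 level of each gene list on each array minus the mean of corn oil wild type (vertical axis) in 10 groups (horizontal axis); points are arrays, lines means of 3. The class II list was lowest under CPA in all 3 genotypes, the pan-leukocyte, Kupffer and interferon lists moved down less, and dendritic cell and hepatocyte markers stayed near 0.

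Some glucocorticoid-responsive genes were higher on the CPA arrays. Of 11 tested, 2 were higher in wild type, where 0.485% of all genes were called higher, 4 in hCAR/hPXR against 1.52%, and 5 in CARko/PXRko (also 5 without the arrays with muscle transcripts) against 2.18%, with medians of 0.30, 1.06 and 1.09 log2 units. In wild type the fitted differences of 3 were below 0, those of Per1 (-0.61), Angptl4 (-0.41) and Sgk1 (-0.17), none of them called. Fkbp5, a chaperone of the glucocorticoid receptor, rose by 2.04 ± 0.29, 3.12 ± 0.29 and 3.13 ± 0.29, and the metallothionein gene Mt2 by 3.60 ± 0.79, 3.78 ± 0.79 and 5.19 ± 0.79. Under DCB 1 was higher in hCAR/hPXR, Mt2 (2.66 ± 0.79), where 3.29% of all genes were called higher, and limma called none in wild type, against 0.610%, or CARko/PXRko, against 0.117%. The relation of these genes to the class II genes was not tested.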

How the data were processed

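Liver RNA of 30 mouse samples in 10 groups of 3 was measured on Affymetrix arrays. The authors deposited 1 log2 value per probe set and array, made with RMA per the submitters' processing notes; background correction, normalization across arrays and summarising can compress folds of dim genes. The number of arrays limits the precision. Of 45037 probe sets, 34945 were annotated to 1 gene, 932 to several and 9160 to none (symbols from the platform annotation). Per gene the single-gene probe set with the highest mean was used. Genes above the array median on at least 3 arrays (12795) were fitted in limma 3.58.1 (R 4.3.3) with a mean per group, eBayes and Benjamini-Hochberg adjustment over all of them; the script was tested on simulated data. No 2 arrays held the same values. All members and, of other lists, at most 4 called genes with the smallest p per comparison are named; genes most like the members were ranked by Pearson's r. Members and lists were chosen with earlier results of these data known. Alternatives changed the filter, normalization, probe set rule, variance model, array weights, replicate block, samples fitted and arrays left out. Same-numbered arrays deviated together (r over 0.1 for every pair) only in hCAR/hPXR against wild type and in PXRko against wild type under corn oil, from 0.11 to 0.45. Single pairs of treatment comparisons had large r too. For DCB in CARko/PXRko it was 0.57 for replicate 1 and -0.59 for replicate 3. For replicate 3 in hCAR/hPXR it was 0.35 with DCB and 0.39 with CPA. No label states a pairing. H2-DMb1 was not analysed, since its probe sets name 2 genes.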

Additional observations from a re-analysis of the deposited data

How the results depend on the processing

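Of 1708 values of a member under an alternative, 1651 kept their side of the threshold, and a sign turned only where neither value was called, in 87 cases. All 17 called values kept their sign under every alternative run, and 7 of them were called under every one. Counts of members called moved by over 1.5 times as follows. With array weights limma called 6 under CPA in wild type, 2 under CPA in CARko/PXRko and 1 for the CPA difference between hCAR/hPXR and wild type. With only the groups compared it called 1 under DCB in hCAR/hPXR, 5 under CPA in wild type and 1 for that CPA difference. Leaving out 1 array in turn gave 0 to 5 under DCB in hCAR/hPXR and 0 to 3 under CPA in wild type. The cause was not tested. For these fits and those that follow, the share of all genes called is not given. A change particular to the members cannot be told apart from a general change of calls. With the replicate number as a block the counts were 5 under DCB in hCAR/hPXR, 3 under CPA in wild type, 5 under CPA in hCAR/hPXR and 5, with H2-DMa added, under CPA in CARko/PXRko; it changed no other count. With probe sets averaged per gene, H2-DMa was called under CPA in all 3 genotypes and under DCB in hCAR/hPXR, while H2-Ab1 lost its call under DCB in hCAR/hPXR and H2-Aa and H2-Ab1 lost theirs under CPA in wild type. Without a filter on dim genes, or with quantile normalization applied again, Cd74 lost its call under CPA in wild type. No background or detection measure was used here, so how far the signal of Ciita, near the array median, stood above background was not assessed.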
